A study of Mus musculus with 6 samples.

Results

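The genes described here build the kinetochore and centromere, run the spindle assembly checkpoint, drive entry into mitosis and carry out mitotic exit. They were 60 mouse genes chosen by symbol, and all 60 were found, once each, among the 42365 rows of the count table. The RNA came from a mouse line labelled NPC, neural progenitors grown in culture, which are able to divide and to form neurons and glia. There were 6 libraries: 2 of parental cells with genotype WT (titled clone 1 and clone 2) and 2 from each of a pair of clones with genotype KO, clone 1 and clone 2. No treatment, age or strain is given for any group. Each labelled knockout clone is 1 clone, and nothing says that its 2 libraries are separate cultures, so p-values between libraries measure a spread that may be technical. The 2 parental libraries, though titled as clones, differed no more than 2 libraries of 1 clone. Their mean chi-square per gene was 3.48, against 22.13 within clone 1 and 4.916 within clone 2.

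The kinetochore is the protein plate that forms on centromeric chromatin, marked by the histone variant CENP-A, and its outer layer, led by the NDC80 complex, holds spindle microtubules. Until every kinetochore is attached, checkpoint proteins hold back CDC20, the activator of the anaphase-promoting complex (APC/C), a ubiquitin ligase. Once released, the APC/C marks securin and cyclin B for destruction, separase cuts cohesin, and the cell leaves mitosis. Many of these genes are transcribed mostly in G2 and mitosis, and a promoter element called the cell cycle genes homology region (CHR), often found near CCAAT boxes, is known from many of them. In a neural progenitor population their RNA is used as a sign of dividing cells. In bulk RNA, more dividing cells and more RNA per dividing cell cannot be told apart.

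Promoter sequences are given first because most of these genes moved together and the CHR is known from many of their promoters. The RefSeq promoter table (build GRCm38.p6) held windows of 250 bases before to 50 bases after the start for 51 of the 60 genes. The CHR was searched as TTTGAA or TTCGAA, the CCAAT box as CCAAT and the E2F site as TTTCGCGC, TTTGGCGC or TTTCCCGC, each on both strands, with overlapping matches kept. The stretches printed here run from 120 bases before to 30 bases after the start, 5′ to 3′ on the gene's strand, with CHR and CCAAT matches in capitals (TTCAAA and ATTGG are matches on the other strand). The first 5 are genes with a CHR match and at least 2 CCAAT boxes in this stretch. Ccnb1 is a strongly changed gene without a match to these 2 CHR spellings, which does not show that its promoter lacks a CHR. Fzr1 and Mis12 are genes that did not pass the test. These 8 genes, and the share over tested genes used for comparison, were chosen after the matches had been seen.
Ube2c, chr2:164769809-164769958, plus strand: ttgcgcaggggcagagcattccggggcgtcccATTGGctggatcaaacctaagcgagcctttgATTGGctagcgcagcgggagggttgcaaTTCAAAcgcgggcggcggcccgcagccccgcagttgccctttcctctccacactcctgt
Cdc20, chr4:118437314-118437463, minus strand: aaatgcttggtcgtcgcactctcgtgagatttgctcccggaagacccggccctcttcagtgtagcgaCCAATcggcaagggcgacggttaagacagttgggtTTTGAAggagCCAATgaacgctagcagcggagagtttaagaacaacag
Cdk1, chr10:69352883-69353032, minus strand: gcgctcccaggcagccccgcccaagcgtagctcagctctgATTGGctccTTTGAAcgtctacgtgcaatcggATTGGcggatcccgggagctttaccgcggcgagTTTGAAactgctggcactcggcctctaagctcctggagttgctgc
Bub1, chr2:127831830-127831979, minus strand: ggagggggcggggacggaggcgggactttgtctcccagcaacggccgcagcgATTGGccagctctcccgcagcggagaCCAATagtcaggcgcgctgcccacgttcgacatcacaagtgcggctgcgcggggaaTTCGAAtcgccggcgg
Ccnb2, chr9:70421525-70421674, minus strand: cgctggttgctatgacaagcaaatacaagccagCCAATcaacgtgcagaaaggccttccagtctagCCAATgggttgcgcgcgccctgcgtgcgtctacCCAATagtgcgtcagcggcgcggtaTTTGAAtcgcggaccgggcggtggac
Ccnb1, chr13:100786457-100786606, minus strand: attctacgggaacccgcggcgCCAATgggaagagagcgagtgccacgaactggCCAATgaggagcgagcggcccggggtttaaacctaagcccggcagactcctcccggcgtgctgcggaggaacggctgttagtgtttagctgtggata
Fzr1, chr10:81378341-81378490, minus strand: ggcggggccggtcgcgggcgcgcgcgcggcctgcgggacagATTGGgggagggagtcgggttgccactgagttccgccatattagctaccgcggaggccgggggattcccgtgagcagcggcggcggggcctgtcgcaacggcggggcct
Mis12, chr11:71019491-71019640, plus strand: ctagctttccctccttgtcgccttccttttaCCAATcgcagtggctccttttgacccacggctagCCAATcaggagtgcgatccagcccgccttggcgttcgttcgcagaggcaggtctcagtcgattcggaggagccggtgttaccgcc

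A CHR match lay in the window of 34 of the 51 genes (66.7%), against 16.7% of the 12216 tested genes in the table and 21.7% of all its 27025 genes. CCAAT boxes were found in 39 of the 51 (76.5%), against 42.7% of tested genes and 41.1% of all genes. Both elements together were found in 30 of the 51 (58.8%), against 8.38% of tested genes. E2F sites of this spelling were in 5 of the 51 (9.8%), against 3.73% of tested genes. Among the 46 of these genes that were higher in the labelled knockout clones, by the test described next, 34 held a CHR. Among the other 5 (Zwint, Dsn1, Mis12, Fzr1 and Anapc1) 0 did, while 3 of those 5 held a CCAAT box. With a CHR in 16.7% of tested genes, 0 of 5 does not set these 5 apart from genes at large. With the window shortened to 100 bases before and 50 after the start, 32 of the 51 still held a CHR (62.7%), against 6.74% of tested genes. A match is a match of letters and not a shown binding site.

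**Figure D1:**
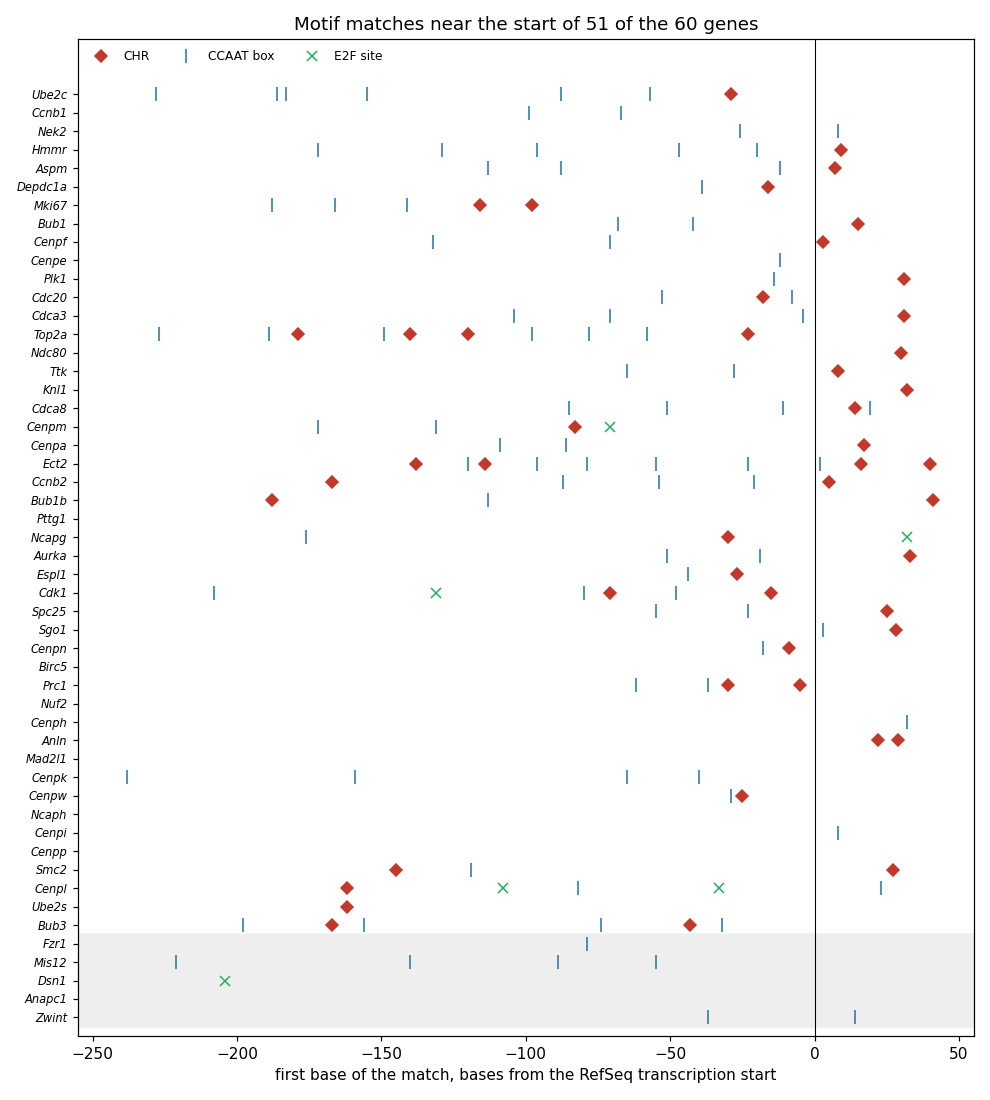
Position of each motif match (horizontal axis, bases from the RefSeq start, negative before it) in the 51 genes with a promoter window, ordered from the highest (top) to the lowest log2 fold change of labelled knockout against parental; diamonds are CHR, bars CCAAT boxes and crosses E2F sites. The shaded genes are the 5 not called higher, and none of them carries a diamond, while 34 of the 46 above them do. A CHR was found in 16.7% of tested genes, so 0 of 5 does not set the shaded genes apart from genes at large.

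Each library held 58871554 to 69530032 counts, and levels are given in CPM, counts scaled to a common library size with TMM factors. The clones of genotype KO are called labelled knockout throughout. More genes had at least 1 count in the parental libraries (37678 and 37419) than in clone 1 (32686 and 32130) or clone 2 (31262 and 30747). The labels name 2 library kits without saying which library used which, so kit and group cannot be told apart. Marker calls are those of labelled knockout against parental, described below, where 13.0% of all tested genes were called higher and 13.6% lower. Lists of 6 or 8 genes are too short to set a share beside these closely. Markers of neural progenitors were present in every group, with a summed 2976 to 2988 CPM in parental cells, 2522 to 2535 in clone 1, and 3102 to 3111 in clone 2 over 8 genes. Of these 8, 3 were called higher (Nes, Fabp7 and Hes5) and 2 lower (Sox1 and Msi1). Sox1 fell from 60.5 CPM to 3.35 and 3.17, and Fabp7 rose from 165 CPM to 601 and 606. The 6 astrocyte markers summed to 5494 and 5535 CPM in parental cells, 1166 and 1161 in clone 1, and 1213 and 1222 in clone 2, and 4 of the 6 were called lower and 1 higher. Gfap fell from 2691 CPM to 1.59 in clone 1 and 9.70 in clone 2 and was higher in clone 2 than in clone 1 (log2 fold change 2.61), and Gja1 fell from 432 CPM to 0.556 and 1.10. The 6 oligodendrocyte lineage markers summed to 670 and 677 CPM, 2248 and 2198, and 2345 and 2383, with 2 called higher (Olig2 and Cspg4) and 1 lower (Mbp). Of the 6 neuronal markers 3 were called lower (Tubb3, Dcx and Stmn2) and 0 higher, with a median log2 fold change of -1.98. Their sum, 1056 and 1063 CPM, 1503 and 1349, and 1062 and 1038, was mostly Map2, which was not called. Microglial, endothelial, fibroblast and embryonic stem cell markers each summed to less than 6 CPM in every library. No marker on these lists was at 0 in all libraries. The part of these shifts in the results on mitotic genes was not tested.

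The first comparison set both labelled knockout clones against parental cells, each clone counting as 1 replicate (edgeR's quasi-likelihood test on the summed counts of each clone and the 2 parental libraries, adjusted over all 24506 genes tested). Mitotic genes were far higher in both clones. Of the 60 genes, 55 rose, 2 fell (Zwint and Anapc1) and 3 did not pass (Dsn1, Mis12 and Fzr1), where 13.0% of all tested genes rose and 13.6% fell. The median log2 fold change was 4.70 over the 60 genes and 0.03 over all genes. The rise was at least 1 on the log2 scale for 53 genes, at least 4 for 38 and at least 6 for 15. Of all 24506 tested genes, 1673 were called higher by at least 1 and 2362 lower. All genes were not counted at 4 and 6. The adjusted p of the 57 called genes ran from 0.00013 to 0.0298. Values given below without parental library 1 or 2 rest on 1 parental column. Calls over all genes fell there too, so a missed threshold is not particular to the genes named.

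All 60 passed the filter on low counts, but for Nek2 and Pbk at least 1 parental library was below the filter's level of 0.105 CPM, so that they passed through the labelled knockout clones. In the fit of single libraries used for the clone comparisons that level was 0.155 CPM, and Depdc1a, at 0.125 CPM in parental library 1, was below it too. In parental libraries 29 of the 60 had a mean under 1 CPM and 8 a mean of at least 10 CPM. In clone 1 none had a mean under 1 CPM and 53 reached 10, and in clone 2 none and 51. Library by library, 56 genes had all 4 labelled knockout libraries above both parental ones, 3 had all 4 below (Zwint, Dsn1 and Anapc1), and Mis12 overlapped, where 28.1% of all tested genes lay above and 28.6% below in this way. The 60 genes held 0.0937% and 0.0932% of all counts in parental cells, 0.382% and 0.377% in clone 1, and 0.268% and 0.265% in clone 2.

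**Figure D2:**
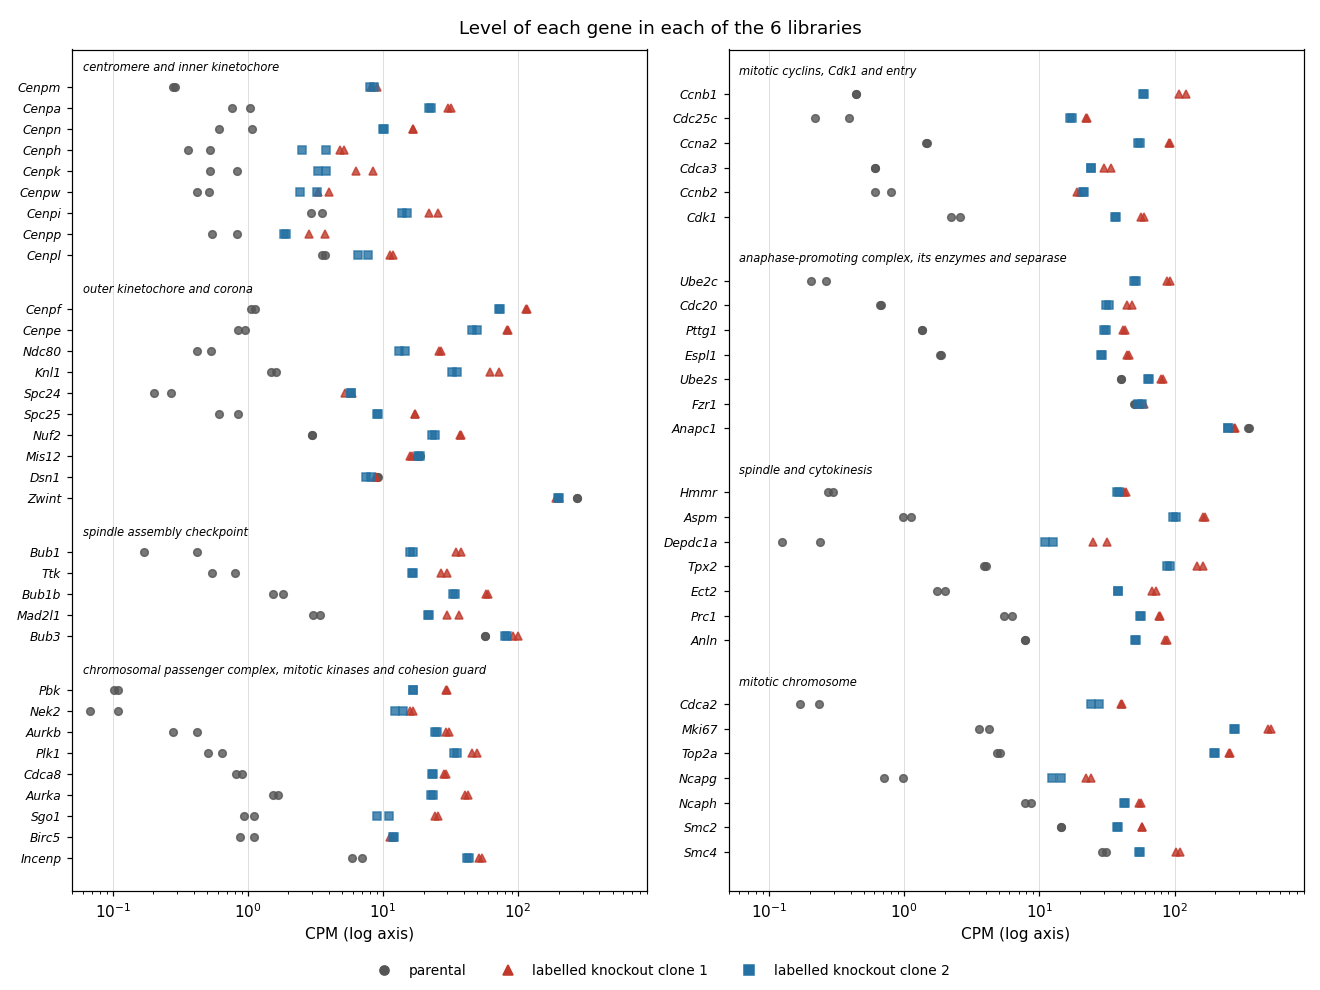
Level of the 60 genes in each of the 6 libraries (CPM, log axis), 1 symbol per library, by role and within a role from the highest to the lowest log2 fold change against parental. Parental circles lie left of both clones for 56 genes, and clone 2 squares lie left of clone 1 triangles for 53.

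Centromere and inner kinetochore genes rose without exception, 9 of 9, with a median log2 fold change of 3.04 and a range from 1.40 to 4.93. Cenpa, which encodes the centromeric histone H3 variant, stood at 1.04 and 0.763 CPM in parental cells, 30.1 and 32.1 in clone 1, and 21.9 and 22.7 in clone 2, a 30.1-fold rise (log2 4.91, SE 0.26, adjusted p = 0.000393). Every labelled knockout library lay above both parental ones, and clone 2 lay below clone 1. Cenpm, a subunit of the constitutive centromere network, had the largest rise of this layer, from 0.281 and 0.288 CPM to 8.19 and 9.06 in clone 1 and 8.65 and 8.02 in clone 2 (4.93, SE 0.20, adjusted p = 0.000243), and here the 2 clones overlapped. Cenpl, which with Cenpn binds CENP-A chromatin, had the smallest, from 3.55 and 3.70 CPM to 11.9 and 11.4 and to 7.73 and 6.49 (1.40, SE 0.26, adjusted p = 0.0164). Cenph, Cenpi, Cenpk, Cenpn, Cenpp and Cenpw, also subunits of that network, lay in between, from 1.94 for Cenpp to 4.02 for Cenpn. Without parental library 1 Cenpl and Cenpp missed the threshold (adjusted p = 0.0757 and 0.0759), and so did Cenpl without parental library 2 (0.0661).

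Of the 10 outer kinetochore genes 7 rose, 1 fell and 2 did not pass. All 4 subunits of the NDC80 complex, Ndc80, Nuf2, Spc24 and Spc25, rose, by 5.43, 3.38, 4.61 and 4.21 on the log2 scale. Ndc80, the subunit that grips microtubules, went from 0.530 and 0.424 CPM to 27.1 and 26.2 in clone 1 and 14.6 and 13.2 in clone 2 (SE 0.40, adjusted p = 0.000906), with no overlap between any of the groups. Knl1, the scaffold that recruits checkpoint proteins, rose by 5.05 (SE 0.39). Cenpe, a kinesin motor of the kinetochore corona, and Cenpf, which helps load dynein there, rose by 6.23 and 6.44. Cenpf was at 1.06 and 1.14 CPM, 114 and 116 in clone 1 and 73.4 and 71.9 in clone 2 (SE 0.28, adjusted p = 0.000279).

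The other 3 of these 10 genes did not rise. Mis12 and Dsn1 encode subunits of the MIS12 complex, the bridge between inner and outer layers. Mis12 stood at 18.7 and 17.7 CPM, 15.9 and 16.5 and 18.1 and 18.8, so that the groups overlapped (log2 fold change -0.04, SE 0.13, adjusted p = 0.844). Dsn1 stood at 9.03 and 9.18 CPM, 8.80 and 8.84, and 7.44 and 8.18 (-0.10, SE 0.14, adjusted p = 0.642). The other subunit genes of that complex, Nsl1 and Pmf1, are not among the 60 and are named after their values were seen. Both rose, Nsl1 by 2.92 (SE 0.25, adjusted p = 0.00133) and Pmf1 by 1.96 (SE 0.15, adjusted p = 0.000979), so members of 1 complex had different calls. Zwint, a KNL1 partner (ENSMUSG00000019923, chr10:72654845-72674964, plus strand), was lower in the clones, with a log2 fold change of -0.44 (SE 0.08, adjusted p = 0.0161). It was at 272 and 275 CPM in parental cells and at 202 and 191 and 200 and 196 in the clones, which overlapped each other and lay below parental. Its adjusted p was 0.278 and 0.288 when parental library 1 or 2 was left out.

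The 5 checkpoint genes rose, with log2 fold changes from 0.67 (Bub3) to 6.5 (Bub1). Bub1, a kinase of the kinetochore checkpoint, had the largest, from 0.171 and 0.424 CPM to 37.8 and 34.6 in clone 1 and 16.8 and 15.9 in clone 2 (SE 0.62, adjusted p = 0.00272). The groups did not overlap, and clone 2 was at less than 17 CPM where clone 1 was above 34. Bub1b, which encodes BUBR1, a part of the complex that blocks CDC20, went from 1.81 and 1.53 CPM to 59.6 and 58.3 and to 33.9 and 32.9 (4.82, SE 0.33, adjusted p = 0.000756). Mad2l1, which encodes MAD2 of the same complex, went from 3.02 and 3.43 CPM to 36.4 and 29.6 and to 21.4 and 21.9 (3.11, SE 0.24, adjusted p = 0.000998). Ttk, the kinase MPS1 that starts the signal, rose by 5.08. Bub3, which also has roles outside mitosis, was well above 10 CPM in every library, at 56.9 and 56.6 CPM in parental cells, 91.5 and 99.7 in clone 1 and 82.4 and 80.0 in clone 2 (0.67, SE 0.11, adjusted p = 0.01). Its adjusted p was 0.118 and 0.124 without parental library 1 or 2.

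All 9 genes of the chromosomal passenger complex, the mitotic kinases and the guard of centromeric cohesion rose, by a median of 4.95 on the log2 scale. Within the passenger complex, which corrects wrong attachments, the kinase Aurkb rose most, from 0.281 and 0.424 CPM to 29.3 and 30.7 and to 25.1 and 24.5 (6.31, SE 0.25, adjusted p = 0.000232). Cdca8, which encodes borealin, rose by 4.95, and Birc5, which encodes survivin, by 3.59. The scaffold Incenp rose least, from 5.94 and 7.06 CPM to 51.1 and 53.9 and to 42.0 and 43.4 (2.90, SE 0.16, adjusted p = 0.000428). The polo kinase Plk1 stood at 0.639 and 0.509 CPM, 45.8 and 49.3, and 33.3 and 35.4 (6.18, SE 0.25, adjusted p = 0.000243). For each of these genes the labelled knockout libraries lay above both parental ones. Pbk, a mitotic kinase also called TOPK, was near the lower end in parental cells with 7 and 6 counts (0.109 and 0.102 CPM), and at 29.2 and 29.7 CPM in clone 1 and 16.6 and 16.8 in clone 2 (7.78, SE 0.42, adjusted p = 0.000395). Nek2, a centrosome kinase, had 7 and 4 parental counts and rose by 7.37 (SE 0.28). Aurka, the spindle pole kinase, rose by 4.37 (SE 0.32), and Sgo1, which protects centromeric cohesin, by 4.13 (SE 0.50, adjusted p = 0.0048), the latter with adjusted p = 0.0706 and 0.0644 without parental library 1 or 2.

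Mitotic cyclins, Cdk1 and the entry genes rose, 6 of 6, from 4.33 to 7.65 on the log2 scale, the highest role median at 5.61. Ccnb1, which encodes cyclin B1, was at 0.436 and 0.441 CPM in parental cells, 121 and 108 in clone 1, and 59.5 and 58.3 in clone 2 (7.65, SE 0.45, adjusted p = 0.000667), with wide gaps between the 3 groups. Cdk1, its kinase, went from 2.23 and 2.58 CPM to 56.5 and 59.3 and to 36.8 and 36.2 (4.33, SE 0.27, adjusted p = 0.000571). Ccna2, the cyclin of S phase and G2, rose by 5.67 (SE 0.30). The second B-type cyclin gene, Ccnb2, rose by 4.88 (SE 0.20), to 20.0 and 18.8 CPM in clone 1 and 21.3 and 20.9 in clone 2 (the difference between the clones did not pass, adjusted p = 0.274). Cdc25c, the phosphatase that activates Cdk1, and Cdca3, which takes part in the removal of the Cdk1 inhibitor WEE1, rose by 6.06 and 5.55.

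Among the genes of the APC/C, its enzymes and separase, 5 rose, Anapc1 fell and Fzr1 did not pass. Ube2c, the ubiquitin-conjugating enzyme that starts chains for the APC/C, had the largest change of all 60 genes, from 17 and 12 counts (0.265 and 0.204 CPM) to 93.3 and 88.0 CPM in clone 1 and 50.2 and 52.3 in clone 2 (8.26, SE 0.41, adjusted p = 0.000381). Its partner Ube2s, which extends the chains, was at 40.5 and 40.0 CPM already in parental cells and reached 78.9 and 81.7 and then 64.1 and 64.6 (0.88, SE 0.13, adjusted p = 0.00738), with adjusted p = 0.0577 and 0.063 without parental library 1 or 2. The 2 activators of the APC/C differed. Cdc20, the activator in mitosis, went from 0.670 and 0.662 CPM to 44.3 and 48.3 and to 31.0 and 32.5 (5.90, SE 0.25, adjusted p = 0.000272). Fzr1, which encodes CDH1, the activator in late mitosis and G1, was at 50.6 and 49.8 CPM, 55.7 and 59.7, and 53.3 and 57.5 (0.20, SE 0.09, adjusted p = 0.144). In the fit of single libraries, where p measures the spread between libraries, Fzr1 passed in each clone (0.20 and 0.14 on the log2 scale, adjusted p = 0.00509 and 0.0368). In clone 2 this edgeR call was lost with DESeq2 size factors, upper quartile scaling and at 5 CPM (adjusted p = 0.0713, 0.0522 and 0.0643). It was lost in DESeq2's own test too (adjusted p = 0.134).

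Securin (Pttg1), the inhibitor of separase, and separase (Espl1) rose by 4.78 and 4.35. Anapc1, the largest APC/C subunit (ENSMUSG00000014355, chr2:128610104-128687391, minus strand), stood at 355 and 351 CPM in parental cells, 273 and 278 in clone 1 and 251 and 249 in clone 2, and fell by 0.39 on a log2 scale (SE 0.09, adjusted p = 0.0298). All 4 labelled knockout libraries lay below both parental ones. Its adjusted p was 0.372 and 0.338 without parental library 1 or 2, and 0.0659 with no filter on low counts.

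The 7 spindle and cytokinesis genes rose by 3.16 to 7.19 on the log2 scale. Hmmr, which encodes a spindle assembly factor, was at 0.296 and 0.271 CPM, 43.7 and 42.4 in clone 1 and 39.1 and 37.4 in clone 2 (7.19, SE 0.16, adjusted p = 0.00013), the smallest adjusted p of the 60 genes. Aspm, which focuses spindle poles and is known from primary microcephaly, rose by 7.01 (SE 0.33), Depdc1a by 6.82 (SE 0.62) and Tpx2, the activator of aurora A on the spindle, by 4.97 (SE 0.30). The midzone bundler Prc1 rose by 3.53 and Ect2, which switches on RhoA at the cleavage site, by 4.90. Anln, which encodes anillin of the contractile ring, rose least, from 7.84 and 7.79 CPM to 87.2 and 84.9 and to 50.7 and 51.5 (3.16, SE 0.26, adjusted p = 0.00127).

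Genes of the mitotic chromosome rose, 7 of 7. Mki67, which encodes the coat protein Ki-67 of mitotic chromosomes, was at 3.60 and 4.22 CPM in parental cells, 516 and 492 in clone 1 and 275 and 279 in clone 2 (6.67, SE 0.37, adjusted p = 0.000592). The topoisomerase gene Top2a went from 4.82 and 5.11 CPM to 252 and 255 and to 200 and 195 (5.54, SE 0.16, adjusted p = 0.000145). Cdca2, a partner of protein phosphatase 1 on anaphase chromosomes, rose most in this role, from 0.234 and 0.170 CPM to 40.4 and 40.9 and to 27.6 and 24.0 (7.38, SE 0.34, adjusted p = 0.000322).

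The 4 condensin genes among them all rose. Ncapg and Ncaph, which belong to condensin I only, had log2 fold changes of 4.47 and 2.60, and the ATPase genes Smc2 and Smc4, shared by both condensins, 1.75 and 1.44. Ncapd2, a condensin I gene outside the 60 and named after its value was seen, had 2.10 (SE 0.16). Smc4 was at 31.1 and 29.1 CPM, 109 and 102 in clone 1 and 55.2 and 54.5 in clone 2 (SE 0.31, adjusted p = 0.0297). It passed narrowly, with adjusted p = 0.182 and 0.203 without parental library 1 or 2 and 0.0582 with no filter.

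**Figure D3:**
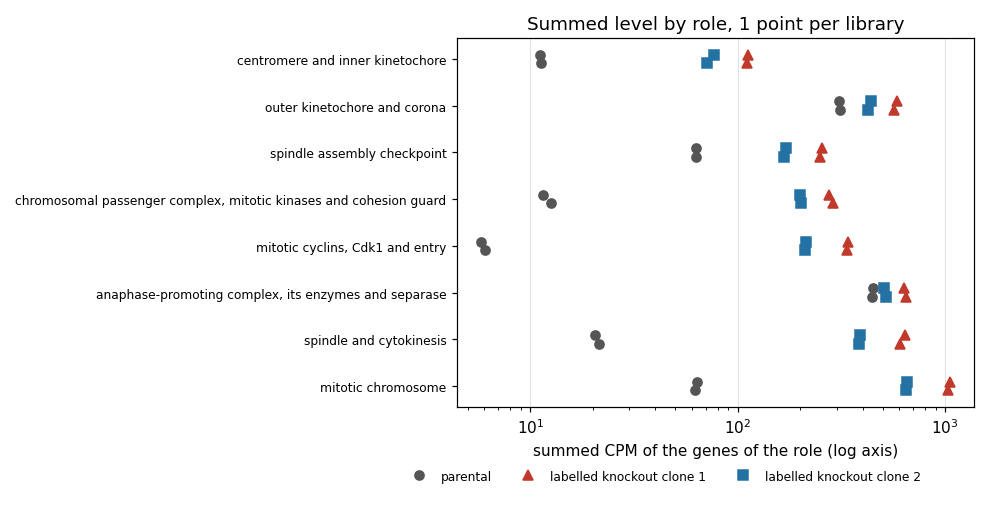
Summed CPM of the genes of each role in each library (log axis, 1 symbol per library). Cyclins and entry genes lie farthest apart between parental cells (5.77 and 6.07 CPM) and clone 1 (341 and 334), and APC/C genes, dominated by Anapc1, lie closest (450 and 445 against 633 and 643).

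Summed by role, the separation from parental cells was widest for the cyclins and entry genes, 57.0 times the parental level in clone 1 and 35.8 times in clone 2. It was narrowest for the APC/C genes (1.43 and 1.14 times) and the outer kinetochore (1.86 and 1.40 times), where single abundant genes, Anapc1 and Zwint, made up much of the parental sum. Over all 60 genes the sum was 933 and 930 CPM in parental cells, 3898 and 3822 in clone 1, and 2646 and 2621 in clone 2.

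Levels were compared between genes only per kilobase of exon. In parental cells the order of mean CPM per kilobase was led by Zwint (61.7), Anapc1 (21.1), Fzr1 (11.2), Bub3 (8.10), Ube2s (7.83) and Mis12 (6.07), and these 6 were among the genes with the smallest changes. The lowest was Nek2, at 0.0196. In clone 1 Mki67 led (50.1), followed by Zwint (44.3), Ube2c (34.9), Tpx2 (32.8) and Top2a (28.2), and in clone 2 Zwint (44.6), Mki67 (27.6), Top2a (21.9), Ube2c (19.7) and Tpx2 (19.3). Cenpw, Cenpp and Cenpk were the 3 lowest in both clones, at 0.872, 1.27 and 1.41 in clone 1 and 0.678, 0.739 and 0.680 in clone 2. The median over the 60 genes was 0.268 CPM per kilobase in parental cells, 8.94 in clone 1 and 5.89 in clone 2.

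**Figure D4:**
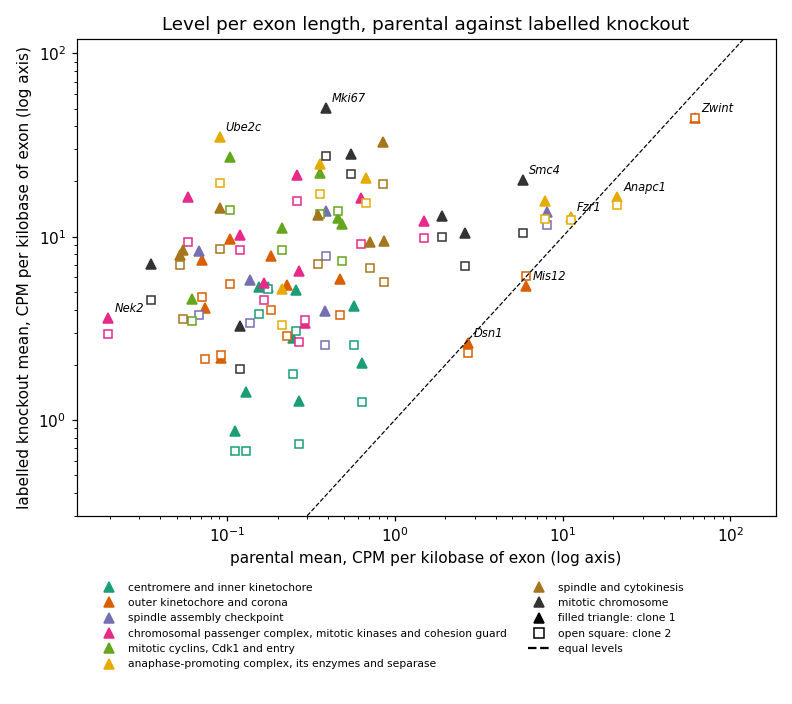
Mean level per kilobase of exon in parental cells (horizontal) and in each labelled knockout clone (vertical), both on log axes, with equal levels on the dashed line. Genes high in parental cells such as Zwint (61.7) and Anapc1 (21.1) lie on or just under the line, and the genes low there lie far above it.

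The clones were then compared with each other in a fit of all 6 libraries in 3 groups (23400 genes tested), which asked whether the clones carried the rise to the same extent. They did not: clone 2 was lower than clone 1 for most of these genes. Of the 60, 51 were lower in clone 2, 0 were higher and 9 did not pass, where 20.3% of all tested genes were lower and 16.1% higher. The median log2 fold change of clone 2 against clone 1 was -0.65 over the 60 genes and -0.01 over all genes. Adjusted p of the 51 ran from 7.34e-10 to 0.0369. Over all 23400 genes tested, 847 were called lower in clone 2 by at least 1 on the log2 scale and 653 higher. Of the 51, 4 differed by at least 1: Sgo1 (-1.30, SE 0.10), Depdc1a (-1.25, SE 0.12), Bub1 (-1.14, SE 0.10) and Cenpk (-1.05, SE 0.16). For these 4, clone 2 libraries lay at 9.09 and 11.1, 11 and 12.6, 15.9 and 16.8, and 3.31 and 3.80 CPM. Their clone 1 libraries lay at 24.3 and 25.5, 24.8 and 31.5, 34.6 and 37.8, and 6.29 and 8.5 CPM.

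The smallest adjusted p between the clones belonged to Smc4 (-0.95, SE 0.05), Mki67 (-0.86, SE 0.05) and Ccnb1 (-0.96, SE 0.06), at 7.34e-10, 8.78e-10 and 1.61e-09. Aspm, Ube2c, Ccna2, Anln and Ect2 came next, lower in clone 2 by 0.73 to 0.88 on the log2 scale. Aspm stood at 1.12 and 0.984 CPM in parental cells, 169 and 164 in clone 1, and 102 and 97.4 in clone 2. Ccna2 stood at 1.48 and 1.44 CPM, 90.6 and 92.0, and 55.1 and 53.8. Ect2 stood at 1.75 and 1.98 CPM, 72.9 and 68.6, and 38.3 and 38.5. In each of these 3 genes the groups did not overlap, and clone 2 lay between parental cells and clone 1. All libraries of clone 2 lay below those of clone 1 for 53 of the 60 genes, where 34.3% of all tested genes did so.

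The 9 genes that did not pass between clones were Cenpm, Cenpw, Spc24, Zwint, Dsn1, Mis12, Birc5, Ccnb2 and Fzr1. The smallest differences were those of Zwint (0.01, SE 0.04), Birc5 (0.05, SE 0.09) and Cenpm (-0.05, SE 0.10). Birc5 stood at 1.11 and 0.882 CPM in parental cells, 11.3 and 11.9 in clone 1 and 12 and 11.8 in clone 2, so both clones rose to overlapping levels. Within 1 complex, Spc24 (0.06, SE 0.12) did not pass, while Ndc80 (-0.94, SE 0.08), Spc25 (-0.92, SE 0.09) and Nuf2 (-0.66, SE 0.07) were lower in clone 2. Within the passenger complex Birc5 did not pass, while Aurkb, Incenp and Cdca8 were lower in clone 2, at -0.28, -0.30 and -0.30. The calls of Aurkb and Cdca8 were not kept in every fit with 1 library left out. Aurkb was then at -0.27 and -0.24 without clone 2 library 1 or 2, and Cdca8 at -0.26 without clone 2 library 1. Outside that complex, the kinase genes Aurka, Pbk, Plk1 and Nek2 had -0.83, -0.82, -0.47 and -0.29. Nek2 missed the threshold in DESeq2's test (adjusted p = 0.0757). Differences between genes were not tested. Among all 60, Mis12 had the largest positive value (0.18, SE 0.07, adjusted p = 0.0598), and it passed as higher in clone 2 with upper quartile scaling (adjusted p = 0.0286). Hmmr passed narrowly (-0.17, adjusted p = 0.0369) and did not under several alternatives, as when clone 2 library 2 was left out (adjusted p = 0.339).

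**Figure D5:**
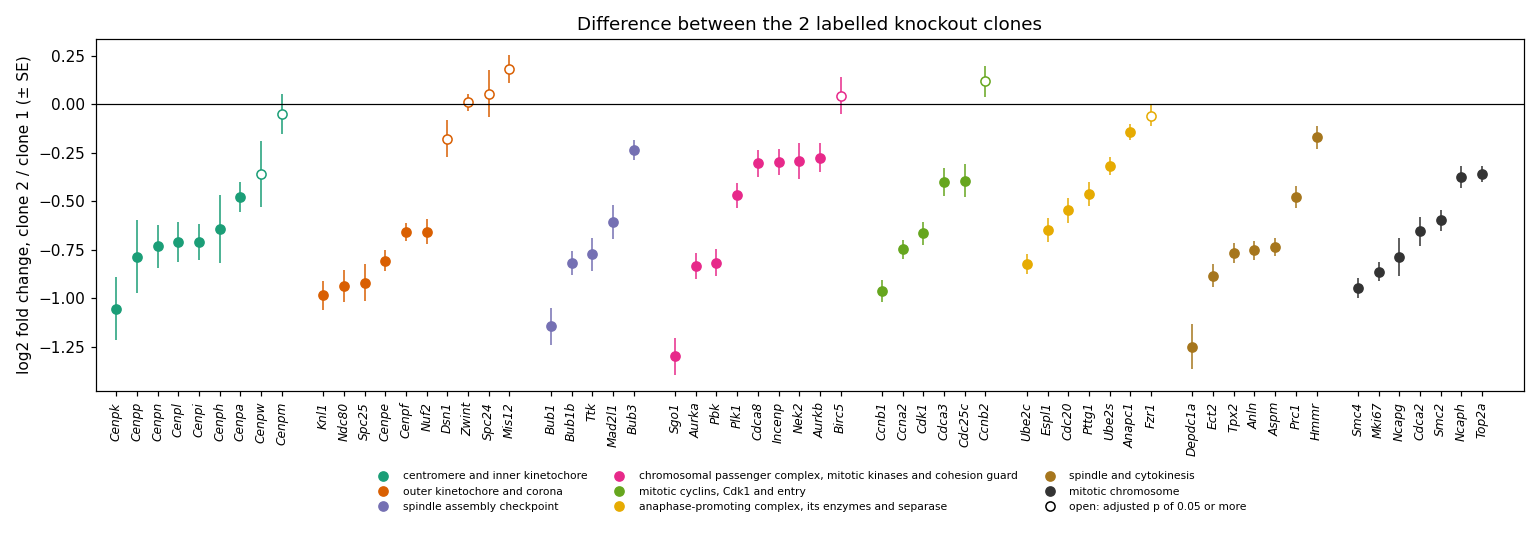
Log2 fold change of clone 2 against clone 1 for each of the 60 genes, coloured by role, with its SE; filled points pass an adjusted p of 0.05 and open ones do not. All 51 filled points lie below 0, from -1.30 for Sgo1 to -0.14 for Anapc1. The call of Anapc1 was not kept in every fit with 1 library left out.

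Each clone was also set against parental cells in this fit. The 2 comparisons share the parental libraries, so each is given by its own values. In clone 1, 56 of the 60 were higher and 2 lower, where 27.3% of all tested genes were higher and 27.2% lower, with a median log2 fold change of 4.78. In clone 2, 56 were higher and 2 lower, where 26.7% of all tested genes were higher and 26.8% lower, with a median of 4.34. In both, Zwint and Anapc1 were the 2 lower genes and Dsn1 and Mis12 the 2 that did not pass. Mis12 was called lower in clone 1 with DESeq2 size factors, upper quartile scaling and at 5 CPM (edgeR adjusted p = 0.0457, 0.0207 and 0.0123). Under the same alternatives Dsn1 was called lower in clone 2 (adjusted p = 0.0421, 0.0454 and 0.0302). In clone 1 the role medians ran from 3.44 for the centromere to 5.83 for cyclins and entry, and in clone 2 from 2.60 to 5.26 for the same roles.

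Other genes of the pathway were described from 5 further lists, to be read beside the 13.0% of all tested genes that rose and the 13.6% that fell. Of 19 other kinetochore and centromere genes found, 13 rose, 0 fell and 6 did not pass in the labelled knockout clones, with a median log2 fold change of 1.96. Kntc1, a subunit of the RZZ complex that recruits dynein, rose by 4.70 (SE 0.23) and Ska1, of the complex that couples kinetochores to shrinking microtubules, by 4.63 (SE 0.32), while Zw10, also of RZZ, had 0.09 (SE 0.13, adjusted p = 0.622) and Itgb3bp, the CENP-R gene, -0.10 (SE 0.20, adjusted p = 0.764). Of 17 other checkpoint, entry and exit regulators 9 rose and 0 fell. The histone H3 kinase gene Haspin rose by 4.22 and the shugoshin gene Sgo2a by 3.57, while Arpp19, a regulator of phosphatase PP2A, had -0.04 (adjusted p = 0.854) and the deubiquitinase gene Usp44 -0.22 (adjusted p = 0.692).

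Changes were small among the other APC/C genes. Of 14 genes (the other subunits and the inhibitor Fbxo5), 4 rose and 1 fell, with a median of 0.16. Fbxo5, which encodes EMI1, went from 2.27 ± 0.0322 CPM (SD, n = 2) to 8.59 ± 0.594 in clone 1 and 6.58 ± 0.535 in clone 2 (1.77, SE 0.20), and Anapc15 rose by 1.06, while Anapc2 fell by 0.51 (SE 0.10, adjusted p = 0.0177) and Anapc11 had -0.19 (adjusted p = 0.413). Of 13 cohesin and other condensin genes 4 rose and 0 fell, with a median of 0.29. Cdca5, which encodes the cohesion factor sororin, rose by 4.13 and Ncapg2 of condensin II by 2.39, while the cohesin gene Stag1 had -0.24 (adjusted p = 0.252) and Ncaph2 -0.05 (adjusted p = 0.754). Of 12 other spindle and cytokinesis genes 10 rose and 0 fell, with a median of 3.69. Knstrn and Troap, both spindle genes, rose by 6.37 and 6.25, while Numa1 and Ckap5, at 321 and 318 CPM in parental cells, had 0.13 and -0.22 (adjusted p = 0.316 and 0.16).

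Between the clones, where 20.3% of all tested genes were lower in clone 2 and 16.1% higher, 15 of 19 kinetochore genes were lower and 1 higher, 12 of 13 cohesin and condensin genes lower and 0 higher, 10 of 17 regulators lower and 1 higher, and 8 of 12 spindle genes lower and 2 higher. Of the 14 APC/C genes 5 were lower and 3 higher, with a median of -0.09, against -0.01 over all genes. The strand setting of the counting is not named in these sources, so reads of overlapping genes cannot be told apart. Exons of Ube2c overlap those of Tnnc2 on the other strand over 22.8% of their length, where Tnnc2 had 0 to 6 counts. Exons of Ncapg overlap Lcorl over 13.4%, and Lcorl had 2085 and 1850 parental counts and 3717 to 6232 in the clones, so the value of Ncapg is uncertain. Other overlapping genes carry that doubt too, among them Cenpp, Ube2s and Ccna2. Exons of Cenpp overlap Ippk over 12.3%, with 685 to 898 counts for Ippk and 35 to 254 for Cenpp. Exons of Ube2s overlap Rpl28 over 3.56%, and Rpl28 had 17854 to 27689 counts. Exons of Ccna2 overlap Exosc9 over 12.5%, and Exosc9 had 1185 to 1471 counts. A copy annotated as a pseudogene of Ccnb2 had 257 and 286 parental counts against 51 and 36 for Ccnb2 itself. In the clones it had 164 to 243 counts against 1288 to 1411 for Ccnb2. That of Ccnb1 had 0 and 2 parental counts against 28 and 26 for Ccnb1, and 96 to 144 in the clones against 3596 to 7966. Reads of these pairs may be shared, so both cyclin B values carry that doubt.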

How the data were processed

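RNA of 6 libraries was sequenced. The deposited table held whole-number counts per Ensembl gene, not normalized; alignment with STAR and counting with featureCounts (versions not given), on GRCm38.p6, with mm10 listed too, are named per the submitters' processing notes. Columns were matched to samples by library name. The tests used edgeR 4.0.16 under R 4.3.3: filterByExpr (minimum count 10), TMM scaling, robust quasi-likelihood test, Benjamini-Hochberg adjustment over all genes tested, threshold 0.05. Labelled knockout against parental used 4 columns (each clone's 2 libraries added, 2 parental libraries; 2 residual degrees of freedom). Clone contrasts came from 1 fit of 6 libraries in 3 groups (3 residual degrees of freedom). SE is the log2 fold change divided by the square root of F. Exon lengths and coordinates came from GENCODE M21 (GRCm38), where all 60 genes were found. The fits were tested on simulated counts with planted changes smaller than those of most of the 60 genes and no random spread between clones. That run therefore does not cover changes as large as these.

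The members and lists were chosen with earlier results of these data known. Each role's largest and smallest change, each gene not called or lower, the clearest and smallest clone differences, and 12 textbook genes are given by library; 2 genes at each end are named in pathway lists. A protein motif search was not run. The targeted gene is not reported here. Alternatives were DESeq2 1.42.0, its size factors, upper quartile scaling, other filters, a replicate block, a minimum fold, single libraries, and libraries left out. Groups of 2 limit the precision.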

Additional observations from a re-analysis of the deposited data

Results flagged for a closer look

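The rise of the mitotic genes over parental cells differed between the labelled knockout clones, tested as clone 2 against clone 1 in edgeR's quasi-likelihood test. The difference passed for 51 of the 60 genes, each with the lower level in clone 2; 50 of them had risen over parental cells in both clones, and Anapc1 had fallen in both. The difference in log2 fold change was largest for the cohesin protector gene Sgo1 at -1.30, followed by Depdc1a at -1.25, the checkpoint kinase gene Bub1 at -1.14 and the centromere gene Cenpk at -1.05. Among the genes with the smallest adjusted p it was -0.95 for the condensin gene Smc4, -0.86 for Mki67, -0.96 for the cyclin gene Ccnb1 and -0.73 for Aspm. It was -0.82 for Ube2c, -0.75 for Ccna2, -0.75 for Anln and -0.88 for Ect2. These clones are 1 line each, so the p-values measure the spread between libraries of a clone.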

How the results depend on the processing

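Counts of the 60 genes called stayed within 1.5 times under each alternative run, except that with a minimum log2 fold change of 1 the 51 genes lower in clone 2 than in clone 1 became 4. Over all 23400 genes tested, the 4752 lower in clone 2 became 847. Leaving out 1 library of a labelled knockout clone gave 57 called genes for labelled knockout against parental. Leaving out a parental library left 1 parental column, and its calls are not given. The median log2 fold change was then 4.64 or 4.70, and calls over all genes fell as well. In the fit of single libraries, leaving 1 out gave medians of 4.75 to 4.85 in clone 1 and 4.31 to 4.39 in clone 2. Between the clones they were -0.64 to -0.59. Leaving out a whole clone, an alternative added after seeing the data, left 1 labelled knockout column, so its p-values hold no spread between clones and its calls are not given. The median log2 fold change over the 60 genes was 4.37 without clone 1 and 4.81 without clone 2, beside 4.70 with both. The library number as a replicate block gave 56, 58, 58 and 51, and Bub1 then missed the threshold for labelled knockout against parental (adjusted p = 0.0806). The numbers share only a name: deviations of same-numbered libraries correlated at -0.01, -0.02 and 0.02.

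Over all 24506 genes tested, 6532 calls for labelled knockout against parental became 4035 with a minimum log2 fold change of 1. Among genes of at least 5 CPM there were 3795 calls in 11025 genes, a larger share of fewer genes. The 6532 calls became 13213 of 23400 with single libraries as replicates, where p measures the spread between libraries. With the minimum fold, 12752, 12520 and 8511 calls of 23400 (clone 1, clone 2, between clones) became 5084, 5101 and 1500. At 5 CPM they were 8019, 7847 and 6619 of 11019, again a larger share of fewer genes.

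Direction changed for genes near 0. Mis12 (-0.04, labelled knockout against parental) was 0.055 with no filter and ran from -0.14 without clone 2 to 0.038 without clone 1, with 0.0051 without parental library 1. Mis12 in clone 2 against parental was -0.0041 with DESeq2 size factors, -0.0042 at 5 CPM, and -0.015 to 0.088 with 1 library left out. Between the clones, leaving out 1 library gave -0.10 to 0.024 for Cenpm (0.021 without clone 1 library 2, 0.024 without clone 2 library 2), -0.0086 to 0.14 for Spc24, -0.032 to 0.067 for Zwint and -0.092 to 0.019 for Fzr1. The summed CPM of the 60 genes moved from 932 to 939, 943 and 934 in parental cells (DESeq2 size factors, upper quartile, library totals), from 3860 to 3799 and 3795 in clone 1 (upper quartile, totals) and from 2634 to 2667 in clone 2 (totals). The cause was not tested. Both other scalings moved the median of all genes by less than 0.1 on the log2 scale. With no filter that median was -0.11 for labelled knockout against parental. Nek2 and Pbk rest on 4 to 7 parental counts per library.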
